A study of Mus musculus with 4 samples.

Results

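The angiopoietins and the Tie receptors were examined as a group of 8 genes among the 47729 genes of the deposited table. They are the ligand genes Angpt1, Angpt2 and Angpt4, the receptor genes Tek and Tie1, the phosphatase gene Ptprb, and the angiopoietin-like genes Angptl1 and Angptl2. They were selected by gene family, with their RPM in the same 4 pools and their differences between the groups already known, so these values are given as a description. Their calls in the fit across all genes are stated, but nothing is read from them. Of the 8 genes, 7 had a mean of at least 1 RPM (reads per 1000000 of the library) and entered the fit across genes, and Angpt4 did not.

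The study grafted LLC cells, a Lewis lung carcinoma line of the mouse, under the skin of the back of C57BL/6 mice. The LLC-Chem cells had been transfected with a pEFIN plasmid that encodes a bioactive form of murine chemerin (Rarres2), a chemoattractant protein. The control tumors came from LLC cells labelled wild type. Tumors of both groups were collected on day 5, and each library was made from a pool of 3 tumors, with 2 pools per group and 4 pools in all. According to the study, transfected cells were selected with G418 and single clones were kept, so an effect of chemerin and a difference between clones cannot be told apart, and cells with an empty vector are described as well. No source states that the pools of a group were independent beyond their separate labels, so p-values measure the spread between these pools. The library totals fitted from the RPM steps lay between 28470000 and 33990000 reads, at which 3 reads correspond to between 0.0883 and 0.105 RPM. Rarres2 was present at 102.2 and 98.2 RPM in LLC, against 105.9 and 105.8 RPM in LLC-Chem (log2 difference 0.08, standard error 0.09, adjusted p = 0.541 by limma with Benjamini-Hochberg adjustment). Rarres2 therefore does not separate the groups clearly in the RNA of whole tumors, and the group names below are those of the labels. Reads of the host's own gene and of the transfected gene were not told apart, so these values do not measure expression from the plasmid.

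Angiopoietins are secreted proteins that bind the receptor tyrosine kinase Tie2, the product of Tek, on endothelial cells. ANGPT1, made mainly by perivascular and other mesenchymal cells, activates Tie2 and keeps vessels quiescent, while ANGPT2, stored and released by endothelial cells, acts as a context-dependent antagonist and is associated with vessel destabilisation and sprouting. TIE1 is a related receptor that binds no angiopoietin with high affinity and modulates Tie2, and the endothelial phosphatase VE-PTP, the product of Ptprb, dephosphorylates Tie2. In tumors this pathway is known for its part in vessel maturation and leakiness, and a subset of monocytes also carries Tie2.

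The genes lie on separate loci of GRCm38, and Tek and Tie1 share chromosome 4 as Angpt4 and Angptl2 share chromosome 2, each pair far apart. Tek spans chr4:94739289-94874976 on the plus strand and Tie1 spans chr4:118471191-118490061 on the minus strand. The ligand genes lie at chr15:42424723-42676977 (Angpt1, minus strand), chr8:18690263-18741562 (Angpt2, minus strand) and chr2:151911210-151945337 (Angpt4, plus strand). Ptprb lies at chr10:116275523-116389535, Angptl1 at chr1:156838562-156861078 and Angptl2 at chr2:33216069-33247717, all on the plus strand. Whether counting used strand is not given in the sources used here, and several of these genes have a partner on the opposite strand. Angpt2 lies within Mcph1, and 14.16% of the exon bases of Angpt1 lie under the antisense gene Gm17473, which measured at most 0.25 RPM. Angptl1 lies within Ralgps2, with 16.37% of its exon bases under Gm37802 on the opposite strand, and Angptl2 within Ralgps1. Coding sequences of Angpt1 and Angpt2 were 64.1% identical with no identical run longer than 17 bases, and those of Tek and Tie1 were 62.14% identical with none longer than 18 bases, so the genes of a pair share no stretch of 50 bases.

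The windows upstream of the transcription start are shown for Tek, Angpt4 and Angptl2, the members whose 250 bases before the RefSeq start hold no annotated exon. They belong to a receptor and a ligand that were both lower in the LLC-Chem pools, and to the gene whose level moved least. RefSeq promoters of GRCm38.p6 were matched for 5 of the 8 genes, and Angpt1, Angpt2 and Ptprb were not among them. Capitals mark GGAA, the core read by ETS transcription factors, or its reverse complement TTCC.
Tek, chr4:94739039-94739288, plus strand: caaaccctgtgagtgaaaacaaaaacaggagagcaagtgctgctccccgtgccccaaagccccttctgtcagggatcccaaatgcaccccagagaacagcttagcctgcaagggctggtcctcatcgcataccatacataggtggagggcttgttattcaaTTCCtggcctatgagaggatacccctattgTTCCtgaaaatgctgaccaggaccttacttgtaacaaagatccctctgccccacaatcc
Angpt4, chr2:151910957-151911206, plus strand: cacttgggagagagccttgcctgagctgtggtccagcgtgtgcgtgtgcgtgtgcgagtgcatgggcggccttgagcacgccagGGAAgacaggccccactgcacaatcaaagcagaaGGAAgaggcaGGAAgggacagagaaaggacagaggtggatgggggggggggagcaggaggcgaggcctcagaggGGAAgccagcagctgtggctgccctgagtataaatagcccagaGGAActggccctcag
Angptl2, chr2:33215711-33215960, plus strand: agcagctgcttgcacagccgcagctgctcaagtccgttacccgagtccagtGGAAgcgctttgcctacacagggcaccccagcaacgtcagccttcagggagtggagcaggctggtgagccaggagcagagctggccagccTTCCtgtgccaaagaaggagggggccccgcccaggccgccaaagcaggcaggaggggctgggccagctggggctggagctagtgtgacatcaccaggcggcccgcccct
GGAA was found on either strand 2 times in the Tek window, 5 times in that of Angpt4 and 2 times in that of Angptl2. It is a common word, held by 93.45% of 32851 promoter windows with a median of 3 matches. The windows of Tie1 and Angptl1 held 7 and 4 matches. The longer ETS word CCGGAA, which contains GGAA, the GATA word AGATAA and the hypoxia response core ACGTG were found in 12.03%, 9.988% and 16.57% of all windows and in none of these 5, which says only that these letters are not there.

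Among the ligands, Angpt1 was higher in the LLC-Chem pools, and Angpt2 and Angpt4 had lower values there, of which Angpt2 was not called by limma and Angpt4 was not tested. Angpt1 stood at 6.30 and 5.35 RPM in LLC pools 1 and 2, against 41.2 and 47.6 RPM in LLC-Chem pools 1 and 2. Both LLC-Chem pools lay above both LLC pools by a wide gap, and the pools within each group were close. The means were 5.82 ± 0.671 and 44.4 ± 4.52 RPM (SD, n = 2), which is 7.63-fold higher and a log2 difference of 2.83 with a standard error of 0.16 on the log2(RPM + 0.5) scale. Leaving out any one pool gave log2 differences between 2.72 and 2.94.

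Angpt2 stood at 17.0 and 11.3 RPM in LLC, against 8.945 and 7.25 RPM in LLC-Chem. The groups did not overlap, but LLC pool 2 lay closer to LLC-Chem pool 1 than to LLC pool 1. The means were 14.2 ± 3.99 and 8.10 ± 1.20 RPM (SD, n = 2), so the LLC-Chem mean was 57.1% of the LLC mean, and the log2 difference was -0.75 with a standard error of 0.24. Without LLC pool 1 it was -0.47. Angpt4, the mouse ortholog of human ANGPT4 and also a Tie2 ligand, was near the limit of these libraries at 1.40 and 0.850 RPM in LLC, against 0.400 and 0.350 RPM in LLC-Chem. Those values rest on 42, 23, 12 and 11 reads, and both LLC-Chem pools lay below both LLC pools.

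Because Angpt1 and Angpt2 bind the same receptor, their ratio was taken within each pool, on the scale of reads per kilobase of exon. Angpt1 stood to Angpt2 as 0.262 in LLC pool 1 (95% exact interval from the reads 0.221 to 0.309) and as 0.333 in LLC pool 2 (0.272 to 0.405). In the LLC-Chem pools the ratio was 3.28 (2.89 to 3.72) and 4.675 (4.08 to 5.375). Angpt2 was thus the more abundant of the pair in both LLC pools and Angpt1 in both LLC-Chem pools. The intervals cover counting error only.

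**Figure D1:**
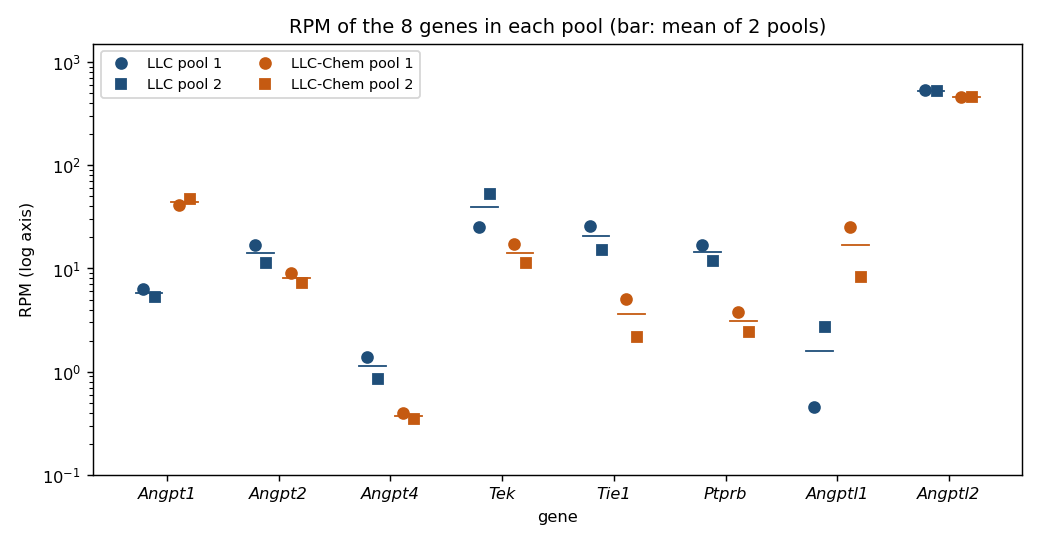
RPM of the 8 genes in each pool, on a log axis. Circles and squares are pools 1 and 2, blue is LLC, orange is LLC-Chem, and bars are the means of the 2 pools. Angpt1 and Angptl1 sit higher in LLC-Chem and the other genes lower, and Angptl2 is the most abundant in every pool.

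Both receptor genes and the phosphatase gene had lower values in LLC-Chem, where limma called Tie1 and Ptprb but not Tek. Tek reached 25.1 and 53.2 RPM in LLC, against 17.1 and 11.3 RPM in LLC-Chem. The groups did not overlap, but the LLC pools differed 2.12-fold from each other, more than LLC pool 1 differed from LLC-Chem pool 1. The means were 39.1 ± 19.9 and 14.2 ± 4.10 RPM (SD, n = 2), a log2 difference of -1.36 with a standard error of 0.38, which was -0.83 without LLC pool 2.

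Tie1 reached 25.6 and 15.2 RPM in LLC, against 5.05 and 2.15 RPM in LLC-Chem. Here LLC pool 1 was the higher of the LLC pools, the opposite order to Tek, and both LLC-Chem pools lay well below. The means were 20.4 ± 7.31 and 3.60 ± 2.05 RPM (SD, n = 2), 5.67-fold lower in LLC-Chem, with a log2 difference of -2.40 and a standard error of 0.42.

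Ptprb, whose product restrains Tie2 signalling, reached 16.9 and 11.8 RPM in LLC, against 3.80 and 2.45 RPM in LLC-Chem. Its pools kept the order of those of Tie1 and did not overlap between the groups. The LLC-Chem mean of 3.12 ± 0.954 RPM was 21.7% of the LLC mean of 14.4 ± 3.57 RPM (SD, n = 2), a log2 difference of -2.04 with a standard error of 0.28.

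Per kilobase of exon, the ratios of Tek to the other genes were lowest in LLC pool 1. Tek stood to Tie1 as 1.02 in LLC pool 1, and as 3.65 in LLC pool 2, 3.56 in LLC-Chem pool 1 and 5.56 in LLC-Chem pool 2, whose interval (4.30 to 7.26) lay above those of the other pools. Tek stood to Ptprb as 4.21 in LLC pool 1 (3.76 to 4.71), and as 12.75 (11.3 to 14.4), 12.8 (10.6 to 15.65) and 13.2 (10.4 to 17.0) in LLC pool 2 and the LLC-Chem pools. The last 3 pools had overlapping counting intervals although they came from both groups. Tie1 stood to Ptprb as 4.11, 3.49, 3.60 and 2.38 in the same order of pools, and there LLC-Chem pool 2 was the lowest (1.70 to 3.31). The ratio of Tek to Ptprb in LLC pool 2 thus lay with those of the LLC-Chem pools and apart from that of LLC pool 1.

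**Figure D2:**
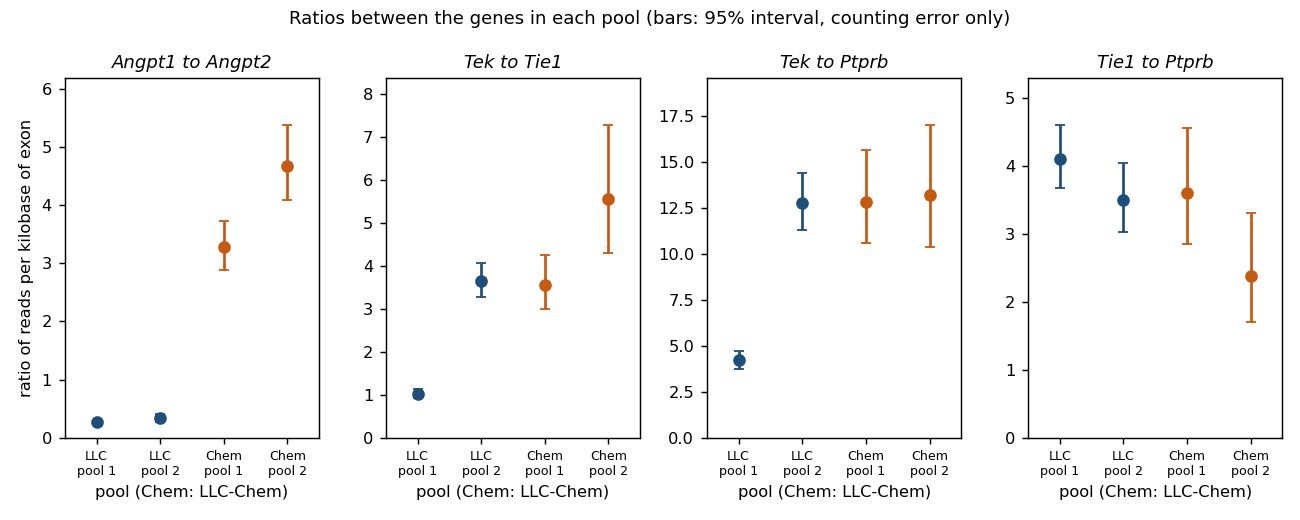
Ratios of reads per kilobase of exon between pairs of genes in each pool. Points are pools (blue LLC, orange LLC-Chem), bars are 95% intervals that cover counting error only, and each panel has its own axis from 0. The ratio of Angpt1 to Angpt2 separates the groups, while that of Tek to Ptprb is lower in LLC pool 1 at 4.21 and between 12.75 and 13.2 in the other pools.

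The angiopoietin-like genes encode secreted proteins of related structure that are not known as Tie2 ligands. Angptl1 stood at 0.450 and 2.70 RPM in LLC, against 25.3 and 8.20 RPM in LLC-Chem. Both LLC-Chem pools were higher, yet the pools of one group differed 6.0-fold in LLC and 3.09-fold in LLC-Chem. The means were 1.57 ± 1.59 and 16.7 ± 12.1 RPM (SD, n = 2), a 10.6-fold difference and a log2 difference of 3.10 with a standard error of 0.73. Without LLC pool 1 the log2 difference was 2.23, and without LLC pool 2 it was 3.98. The lowest value rests on 13 reads, with an exact 95% interval of 6.92 to 22.2 reads. Its host gene on the other strand, Ralgps2, stood at 11.3 and 10.99 RPM in LLC, against 30.2 and 28.2 RPM in LLC-Chem, and the part of strand in either value was not tested.

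Angptl2, whose product is linked to inflammation and tissue remodelling, stood at 539.9 and 521.0 RPM in LLC, against 459.5 and 463.3 RPM in LLC-Chem. The pools within each group were nearly equal and the groups did not overlap. The LLC-Chem mean of 461.4 ± 2.69 RPM was 87.0% of the LLC mean of 530.4 ± 13.4 RPM (SD, n = 2), with a log2 difference of -0.20 and a standard error of 0.11.

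In the limma fit over 13694 genes, 2 of the 7 genes tested were called higher (Angpt1 and Angptl1), against 9.54% of all genes, and 2 were called lower (Tie1 and Ptprb), against 13.5% of all genes. Both LLC-Chem pools lay below both LLC pools for 5 of the 7, as for 39.3% of all genes, and above them for 2, as for 33.1%. The genes were selected with this contrast known, so nothing is read from these counts. Angpt2, Tek and Angptl2 were not called, although DESeq2 and the likelihood ratio test of edgeR on the recovered reads called Angpt2 and Tek lower. Without the filter on low values, limma called none of Angpt1, Angptl1, Tie1 and Ptprb. Angptl1 was also not called by limma without the trend, where the other members called above kept their calls.

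Levels can be compared between genes per kilobase of exon, taken here over the union of a gene's exons. In LLC the order of the mean RPM per kilobase was Angptl2 at 84.4, Tek at 8.30, Tie1 at 4.15, Angpt2 at 3.84, Angpt1 at 1.12, Ptprb at 1.08, Angptl1 at 0.554 and Angpt4 at 0.482. The pools of Tie1 and Angpt2 overlapped, as did those of each neighbouring pair from Angpt1 down to Angpt4. In LLC-Chem the order was Angptl2 at 73.4, Angpt1 at 8.54, Angptl1 at 5.89, Tek at 3.01, Angpt2 at 2.19, Tie1 at 0.732, Ptprb at 0.234 and Angpt4 at 0.161. There the pools of Angpt1 overlapped those of Angptl1, those of Angptl1 overlapped those of Tek, and those of Tek overlapped those of Angpt2. With the length of the longest transcript instead, Angptl2 was at 149.0 in LLC and 129.6 in LLC-Chem. Angpt1 stood below Angpt2 in LLC and next to Angptl2 at the top in LLC-Chem.

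Markers of endothelial cells fell in the same comparison. Of 15 endothelial markers, 13 were called lower, among them Pecam1 (71.2 and 46.2 RPM in LLC, against 18.5 and 9.34 RPM in LLC-Chem, adjusted p = 0.0204), Cdh5 (VE-cadherin, log2 difference -2.46 with a standard error of 0.33) and Kdr (the VEGF receptor, -2.10 with 0.19). Sox17 and Egfl7 did not pass, at adjusted p of 0.0588 and 0.0713 (limma with Benjamini-Hochberg adjustment). The summed endothelial level was 253.1 to 373 RPM in LLC, against 61.4 to 99.5 RPM in LLC-Chem. In bulk tumors, fewer cells of a type and less RNA per cell cannot be told apart.

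The genes were therefore also expressed relative to the mean log2 level of the 15 endothelial markers of the same pool, which itself differed by -1.85. On that scale Tie1 differed by -0.55 and Ptprb by -0.19, and both were lower in LLC-Chem without overlap. Against Pecam1 alone, Tie1 differed by -0.32, and Ptprb turned to 0.0395 with overlapping groups. Tie1 was at 0.50 and 0.34 in LLC and at 0.07 and -0.33 in LLC-Chem, and Ptprb was at -0.08 and -0.02 in LLC and at -0.30 and -0.18 in LLC-Chem. By contrast, Tek differed by 0.49 and Angpt2 by 1.10. For Angpt2 the relative level was -0.07 and -0.08 in the LLC pools and 0.84 and 1.22 in the LLC-Chem pools, without overlap. For Tek it was 0.48 in LLC pool 1, 2.10 in LLC pool 2, and 1.73 and 1.82 in the LLC-Chem pools, so the groups overlapped. Angpt1, Angptl1 and Angptl2 differed by 4.68, 4.95 and 1.65.

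**Figure D3:**
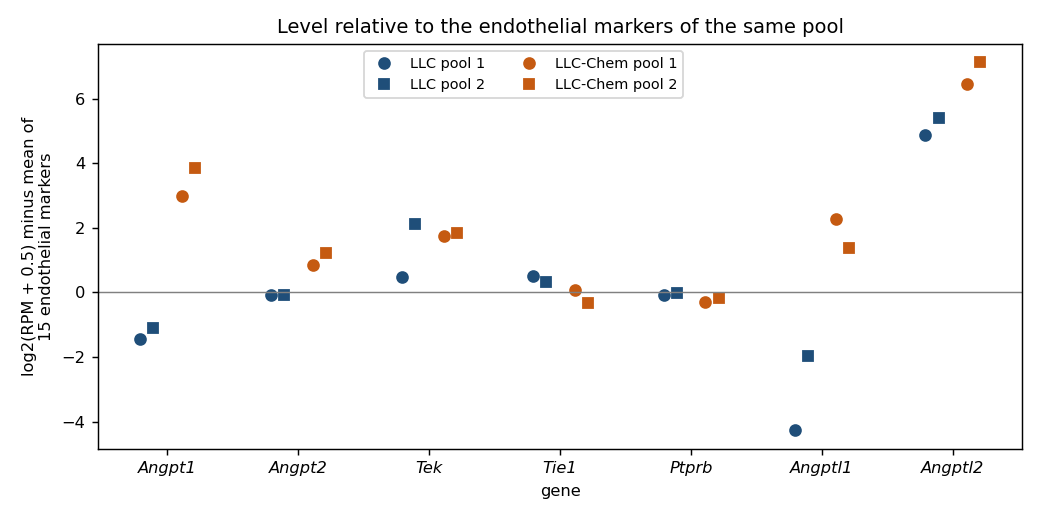
Log2(RPM + 0.5) of 7 genes minus the mean of 15 endothelial markers in the same pool. Circles and squares are pools 1 and 2, blue is LLC and orange is LLC-Chem. Tie1 and Ptprb are lower in LLC-Chem without overlap (for Ptprb not so against Pecam1 alone, where the difference is 0.0395), Angpt2 is higher in both LLC-Chem pools, and the groups overlap for Tek, with LLC pool 1 lowest at 0.48.

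The genes whose pattern over the 4 pools was nearest to each member were taken from the 13693 other tested genes, by the root mean square difference of their centred log2 values. For Angpt1 these were Fgf10, a fibroblast growth factor made by mesenchymal cells, at 0.057, then Edil3 and Fam19a1. For Tie1 they were Ctla2a at 0.0485, Tarm1 and Cdh5, and for Ptprb they were Btbd11 at 0.0393, H2-Q7 and Gimap1. Tek had Hal at 0.0348, Fzd10 and Ccdc8, and Angpt2 had Cks2 at 0.0149, Il15 and Glrx. Angptl2 had Clpb, Marc2 and Sephs1, and no gene lay close to Angptl1, whose nearest were Agtr2 at 0.662, H19 and Kera. Of the 15 endothelial markers, 14 were among the 500 genes nearest to Tie1 and 14 among those nearest to Ptprb, against 1 for Angpt2 and 0 for Tek and Angpt1. Of 9 monocyte and macrophage markers, 3 were among the 500 nearest to Tek and 1 each among those nearest to Tie1 and Ptprb. Fibroblast, mural and other marker lists were not counted in this way, so the counts do not set one cell type above another. These likenesses rest on 4 pools and include the difference between the groups. The 15 endothelial markers, Tie1 and Ptprb were all lower in both LLC-Chem pools, so the counts partly restate that shared difference. When the mean had to reach 5 RPM, Tek kept only Ccdc8 of its 3, followed by Aldh1a3 and Cgref1, while Angpt2 and Angptl2 kept all 3 and the other members 2 of 3.

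The other genes of the pathway were taken from a list of 44, of which 38 were tested. limma called 13 of them lower and 3 higher and did not call 22, which is 34.21% lower and 7.895% higher beside the shares of all genes given above, with a median log2 difference of -0.16 against -0.04 over all genes. Among the adaptors that bind active Tie2, Grb14 fell (log2 difference -2.005, adjusted p = 0.0177), as did Grb2 (-0.43, adjusted p = 0.0472), while Pik3r1, the regulatory subunit of PI3-kinase, rose by 0.99 (adjusted p = 0.0132), and the other 7 tested were not called. Downstream of Tie2, 5 of 9 genes fell, namely Nos3 (endothelial nitric oxide synthase, -1.41), Pak1 (-1.03), Birc5 (survivin, -0.96), Akt1 (-0.50) and Diaph1 (-0.38). The transcription factors Foxo1 (log2 difference -0.56, adjusted p = 0.0832) and Klf2 (-0.42, adjusted p = 0.341) did not pass.

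Of the remaining pathway genes, all 4 tested partners of VE-PTP and receptor-shedding proteases passed. Cdh5 and Kdr, which are also endothelial markers above, fell. The proteases Adam17 (0.73, adjusted p = 0.0144) and Mmp14 (0.70, adjusted p = 0.0307), which can release the ectodomains of Tie receptors, rose. Svep1, a matrix protein that binds TIE1, fell by 1.49 (adjusted p = 0.0185), and Pirb, a myeloid receptor for ANGPTL2, fell by 1.31 (adjusted p = 0.0296). Of the integrins Itga5, Itgav, Itgb1 and Itgb3, none was called. Angptl4, a lipoprotein lipase inhibitor, fell, with 157.5 and 154.2 RPM in LLC against 51.4 and 54.2 RPM in LLC-Chem (-1.55, adjusted p = 0.00624). Of the 7 tested upstream regulators, the hypoxia factor Epas1 fell by 1.56 (adjusted p = 0.0222), and Vegfa (0.74, adjusted p = 0.0533), Hif1a (-0.09, adjusted p = 0.699) and Ets1 (0.44, adjusted p = 0.073) were not called. All of these p-values are from limma with Benjamini-Hochberg adjustment over 13694 genes. Of the pathway genes not called, Vegfa, Ets1, Foxo1 and Dok2 passed under an alternative fit, while some called genes lost their calls, as given below. With any one of the 4 pools left out limma called 0 genes of any list, although 10 to 15 pathway genes were lower and 3 to 5 higher at an unadjusted p under 0.05, and an exact permutation test on this design, 2 pools a group, allows no p smaller than 0.33.

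**Figure D4:**
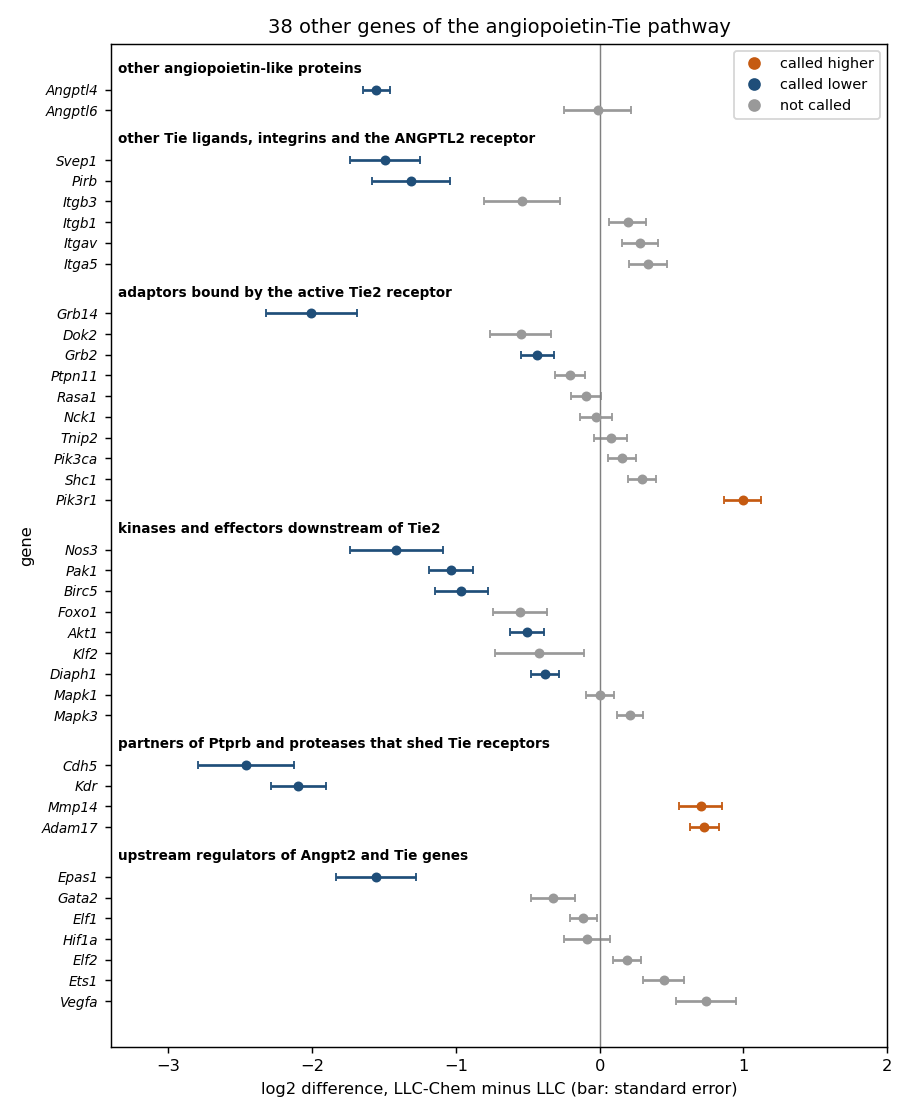
Log2 difference of LLC-Chem minus LLC for the 38 tested pathway genes, grouped by role, with bars for the standard error. Orange genes were called higher (3), blue genes lower (13) and grey genes were not called (22).

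Markers of other cells that carry or supply these proteins were measured in the same pools. Mural cells, the pericytes and smooth muscle cells that supply ANGPT1 to vessels, had 7 of 9 tested markers lower, among them Acta2 (-2.50, adjusted p = 0.01) and Rgs5 (-1.99, adjusted p = 0.015), and their sum was 253.4 to 323.5 RPM in LLC, against 65.4 to 104.2 RPM in LLC-Chem. Angpt1 was higher in the same pools, and the part of mural cells in its values was not tested. Of 7 fibroblast markers, Col1a1, Col1a2 and Pi16 were lower, Pdgfra was higher (0.72, adjusted p = 0.045), and Dcn, Lum and Dpt had log2 differences of 0.80, 1.00 and 0.92 without passing. Of 9 monocyte and macrophage markers, Ptprc, Csf1r, Itgam and Ly6c2 were lower, while Adgre1 (-1.01), Cd68 (-0.86), Lyz2 (-1.27), Mrc1 (-0.06) and Cd163 (0.47) were not called. Lyz2 alone made up most of the LLC sums, and the sum over all 9 was 4239 and 7036 RPM in LLC, against 3539 and 1869 RPM in LLC-Chem. Between the LLC pools, 4 of these 9 markers were higher in LLC pool 2, the order of Tek, with Lyz2 1.99-fold higher, and 5 were lower there, with Ly6c2 at 88.2 and 20.9 RPM. All 7 fibroblast markers had the order of Tek, Col1a1 being 1.68-fold higher in LLC pool 2. The part of either list in the values of Tek was not tested.

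Of the lymphatic endothelial markers, Lyve1, which some macrophages also carry, rose, with 22.4 and 18.1 RPM in LLC against 176.7 and 120.4 RPM in LLC-Chem (log2 difference 2.83, adjusted p = 0.00665, limma with Benjamini-Hochberg adjustment). Flt4 (-1.72) and Pdpn (-0.64) fell, and Prox1, the defining lymphatic factor, measured at most 0.300 RPM. Among platelet markers, which bear on ANGPT1 because platelets carry it, Pf4 (-1.12) and Ppbp (-3.44) fell, Itga2b was not called and Gp9 measured at most 0.0999 RPM. None of 3 erythroid markers was called, and their pools differed widely within a group. Hbb-bs stood at 53.7 and 19.7 RPM in LLC, against 74.3 and 2.35 RPM in LLC-Chem. Of the remaining lists, 1 of 3 tested adipocyte markers (Cfd) and the 1 tested skeletal muscle marker (Tnnt3) were higher, with Ckm and Myh4 at 0 in every pool, and the 1 tested keratinocyte marker (Krt10) was not called. As a check of the carcinoma label, Krt8 and Krt18 were present at 82.8 to 167.1 RPM and were not called, while Epcam measured at most 0.200 RPM and Cdh1 at most 1.40 RPM. The part of these cell types in the values of the 8 genes was not tested.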

How the data were processed

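RNA-seq was carried out on 4 pools, with groups and replicate numbers taken from the labels. Per the submitters' processing notes and the study's methods, reads were mapped with STAR to GRCm38.p4/mm10 and counted on Ensembl genes with HTSeq. The authors deposited RPM for 47729 genes, and tool versions and the use of strand are not given in the sources used here. The RPM were whole steps, read here as counts scaled to 20000000 and rounded up, and library totals and reads were recovered. Of the values below 500 RPM, 100% came out whole within 0.05 of a step.

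Members and gene lists were chosen with earlier results of these data known. The genes named are the 8 members, the pathway and marker lists, and the 3 genes nearest in pattern to each tested member. Log2(RPM + 0.5) was used for the 13694 genes whose mean reached 1 RPM, and was fitted with limma 3.58.1 (trend, two-sided, R 4.3.3), and genes were called at a Benjamini-Hochberg adjusted p under 0.05. Tested on simulated data for 13572 genes in LLC-Chem against LLC, limma called 193 genes and recovered 187 of 194 changed ones, with 3.1% false calls. The simulated reads varied independently between genes at a set dispersion, so this is a check of the code and not the share of false calls in the real pools. On the recovered reads, edgeR 4.0.16 (quasi-likelihood) called 1556 genes higher and 1615 lower. DESeq2 1.42.0, other pseudocounts, filters and scalings, blocks and leaving out each pool were further alternatives.

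Pools of one group differed beyond sampling noise, with a median chi-square per gene of 6.31 in LLC and 3.63 in LLC-Chem. Annotation was GENCODE M21, which holds 47224 (98.9%) of the identifiers. Coding sequences were compared because no protein table was used here. Plots were made with matplotlib 3.10.9 in Python 3.11.15.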

Additional observations from a re-analysis of the deposited data

How the results depend on the processing

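The log2 differences of the 7 tested genes kept their sign under every alternative run, from 2.72 to 2.99 for Angpt1, -1.03 to -0.47 for Angpt2, 2.23 to 3.98 for Angptl1, -0.23 to -0.15 for Angptl2, -2.31 to -1.77 for Ptprb, -1.90 to -0.83 for Tek and -2.94 to -1.87 for Tie1. Relative to Pecam1 alone in place of the 15 endothelial markers, the difference of Ptprb turned from -0.19 to 0.0395, and the cause was not tested. Counts of calls moved more. Without a filter limma called 1 gene higher and 0 lower (3394 and 4003 at an unadjusted p under 0.05) and 0 pathway genes either way (6 higher and 16 lower at an unadjusted p under 0.05). Leaving out each pool gave 0 to 0 calls in each direction over all genes and in the pathway, with 998 to 2359 genes higher and 1580 to 2823 lower at an unadjusted p under 0.05, and a fit without one pool leaves fewer samples. With the replicate block 549 genes were higher and 1064 lower, and 2 and 9 pathway genes, and Angptl1, Akt1, Grb2, Mmp14, Diaph1 and Pirb were not called, nor were the markers Col1a1, Col1a2, Pi16, Pdgfra, Csf1r and Cfd, while Sox17 and Egfl7 were then called lower, which makes 15 of 15 endothelial markers. The replicate numbers are only labels, since deviations of same-numbered pools correlated at -0.14. A crossed block, chosen after seeing the data, called 1579 genes higher and 2320 lower, and 5 and 15 pathway genes. On the recovered reads the likelihood ratio test of edgeR gave 2001 higher genes, with 5 pathway genes higher, and DESeq2 called 5 pathway genes higher. Depth limits Angpt4 most, at 11 to 42 reads a pool, while the LLC pools of Angptl1 differed beyond their counting intervals.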
